A study of Mus musculus with 3 samples.

Results

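The 38 genes described here encode the vacuolar H+-ATPase (V-ATPase), its accessory proteins, the Ragulator complex, the Rag GTPases and the mTOR and Raptor subunits of mTORC1. They were taken by name from the 55536 annotated genes, 22028 of them protein-coding, as protein-coding genes whose GENCODE M21 symbol starts with Atp6v or Atp6ap, is Lamtor1 to Lamtor5, or is Tcirg1, Rraga, Rragb, Rragc, Rragd, Mtor or Rptor. The rule uses names only, and no measured value, but the genes were chosen with earlier results of these data known. RNA came from the cytosolic fraction of mouse C57BL/6J bone marrow-derived macrophages that had been treated with lipid A, the toll-like receptor 4 agonist of bacterial endotoxin, at 100 ng/ml for 50 minutes. Ribosomal RNA had been depleted and total RNA sequenced, in 1 group of 3 libraries numbered as biological replicates. The labels give the 3 libraries the same donor, leave age and sex uncollected, and do not say whether the replicates were separate animals or separate cultures, so the spread between them may in part be technical. Untreated cells were not analysed here, so the effect of lipid A itself cannot be read from these values.

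The V-ATPase is a rotary proton pump that acidifies lysosomes, endosomes and secretory vesicles. Its cytosolic V1 part hydrolyses ATP and turns a central stalk, and its membrane part, V0, holds a ring of proton-carrying subunits that the stalk rotates against subunit a. Several subunits have paralogous genes, some of which are known mainly from osteoclasts, kidney intercalated cells, neurons or testis. At the lysosomal surface the pump binds Ragulator, the lysosomal anchor of the Rag GTPases, which recruit mTORC1 when amino acids are plentiful. In macrophages this surface is where phagosome acidification, nutrient sensing and the lysosomal gene program meet.

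Many lysosomal genes carry a CLEAR element, the binding site of the transcription factors TFEB, TFE3 and MITF, whose core is the E-box CACGTG. That core reads the same on both strands, so a search for it covers both. Only this core and the longer words given below were searched for, not the whole element. RefSeq promoter windows of build GRCm38.p6, which run from 250 bases before to 50 bases after a transcript start, could be matched to 30 of the 38 genes. The core was present in the windows of 8 of these 30 genes (26.7%), against 8.09% of all 27025 genes with a window and 7.15% of all 32851 windows. In each of the 8 genes a match was preceded by T on at least 1 strand, and that longer word, TCACGTG, was found in 4.29% of all genes. Its symmetric extension TCACGTGA was found in 3 of the 30 genes and in 1.12% of all genes; the 3 words overlap, since each contains the one before it. The sequences that follow are stretches around the match in 5 of the genes, chosen to cover V0, V1, Ragulator and the Rag GTPases. They are written 5′ to 3′ on the strand of the gene with the core in capitals.

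Atp6v0b: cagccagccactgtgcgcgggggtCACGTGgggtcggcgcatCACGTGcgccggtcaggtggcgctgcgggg
Atp6v1a: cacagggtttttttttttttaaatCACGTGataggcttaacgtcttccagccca
Lamtor1: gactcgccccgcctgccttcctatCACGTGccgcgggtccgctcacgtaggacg
Lamtor4: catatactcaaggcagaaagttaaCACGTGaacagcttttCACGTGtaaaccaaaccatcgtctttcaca
Rragc: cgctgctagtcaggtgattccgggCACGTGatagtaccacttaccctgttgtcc

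The stretch of Atp6v0b, which encodes the c'' subunit of the ring, is chr4:117887318-117887389 on the minus strand, with the core beginning at positions -36 and -18. Positions count from the transcript start, with -1 the base before it. Atp6v1a, the catalytic A subunit, has it at -131, in chr16:44139361-44139414 on the minus strand. Lamtor1, the lipid-anchored scaffold of Ragulator, has it at -68, in chr7:101905745-101905798 on the plus strand. Lamtor4 has it at -120 and -104, in chr5:138255338-138255407 on the plus strand, and Rragc has it at -112, in chr4:123917297-123917350 on the plus strand. In the other 3 genes with a match the core began at -3 (Atp6v0d1), at base 4 of the transcript (Atp6v0e) and at -127, -36 and -3 (Rragb). The 8 genes with the core had a median level of 92.0 TPM and ranged between 0.243 and 192 TPM. The 22 genes without it had a median of 18.8 TPM and ranged between 0 and 770 TPM, and unexpressed paralogs lowered that median. With genes below 1 TPM in any library left out, the medians were closer, at 96.6 TPM (7 genes with the core) and 51.0 TPM (15 without it). The 8 genes that had no matched window are in neither group. The highest gene of all, Atp6v0c, was among the 22, as were 6 of the genes without a single read. A match is a description of letters in this window and not of binding, and no binding was measured here.

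The cells carried the markers of their label. All 7 macrophage markers reached 1 TPM in each library, with Cd68 at 1201, 701 and 883 TPM and Csf1r at 601, 299 and 340 TPM in libraries 1, 2 and 3. Of 7 osteoclast markers, 2 reached 1 TPM in each library (Acp5 and Ctsk), Calcr and Oscar were at 0 reads in every library, and the list summed to 5.36, 5.59 and 8.10 TPM. None of the markers of kidney intercalated cells (4), neurons (4), T cells (3), B cells (3), neutrophils (3) or fibroblasts (3) reached 1 TPM. The gene tables held 33044910, 36769402 and 36522216 expected counts, at which a count of 3 corresponds to 0.0908, 0.0816 and 0.0821 CPM, the count scaled to the library total. TPM is relative to all RNA in a library, and protein-coding genes held 38.3%, 26.6% and 34.8% of it; most of the 38 genes had their lowest TPM in library 2 as well. Fewer cells making an RNA and less of it per cell cannot be told apart in such bulk samples.

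Most of this lysosomal machinery was expressed, and at high levels. Of the 38 genes, 29 (76.3%) reached 1 TPM in each library, against 9128 of 22028 protein-coding genes (41.4%). A level of 100 TPM was reached in each library by 8 of the 38 genes (21.1%), against 421 protein-coding genes (1.91%). Cut-offs and levels are in TPM of the first of 2 deposited quantifications unless stated. Unscaled TPM was lower in the second, with a mean of 272 TPM for Atp6v0c there. The median level was 79.9 TPM over the 29 genes and 9.395 TPM over the 9128. Together the 38 genes summed to 3603, 2334 and 2989 TPM, which was 0.940%, 0.878% and 0.860% of the TPM of all protein-coding genes. Of the 9 genes that did not reach 1 TPM in each library, 7 had 0 counts in every library, and Atp6v0e2 and Rragb had a few reads.

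**Figure D1:**
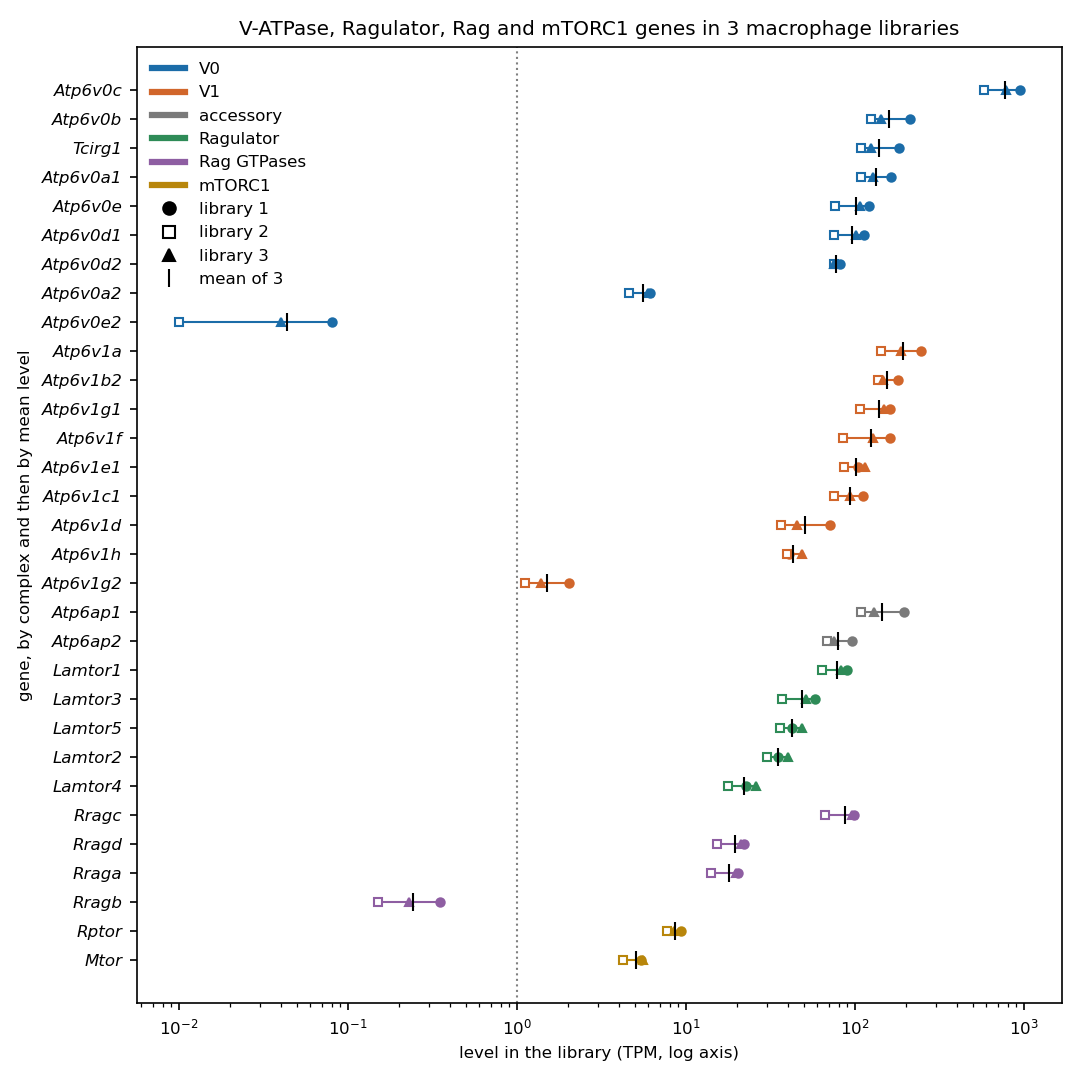
Level of each gene with reads in all 3 libraries, in TPM on a log axis; circles, open squares and triangles are libraries 1, 2 and 3, the black tick is their mean, colours mark the complex and the dotted line marks 1 TPM. The proton ring gene Atp6v0c stands highest at 770 TPM, most V0 and V1 genes lie between 42.8 and 192 TPM, and Mtor and Rptor lie below 10 TPM.

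The membrane part of the pump, V0, was led by the gene of its proteolipid ring. Atp6v0c (chr17:24163866-24169702, minus strand, mm10), which encodes the proton-carrying c subunit present in several copies per ring, had 948, 582 and 780 TPM in libraries 1, 2 and 3 and ranked in the top 0.449% of detected protein-coding genes. Its ring partner Atp6v0b had 211, 124 and 143 TPM, so Atp6v0c over Atp6v0b was 4.49-, 4.69- and 5.47-fold. With protein-coding transcripts alone it was 7.09-, 5.20- and 5.46-fold, which turned library 1 from the lowest ratio into the highest. The small membrane subunit gene Atp6v0e had 121, 75.8 and 107 TPM. In every library the order was therefore Atp6v0c, then Atp6v0b, then Atp6v0e, with no overlap between the first and the others. Atp6v0c shares 35.2% of its 31-base words with other annotated genes, mostly the processed pseudogene Atp6v0c-ps2 listed at 4.75 TPM. Part of its level may thus depend on how the authors' quantification divided such reads. Rescaled over protein-coding genes, its mean level in the second quantification was 0.977-fold that in the first.

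Subunit a, which forms the proton path beside the ring, was split between a pair of genes. Atp6v0a1 (chr11:101009452-101063719, plus strand), the form best known from neurons, had 163, 108 and 127 TPM in libraries 1, 2 and 3. Tcirg1 (chr19:3896050-3907133, minus strand), which encodes the a3 form of osteoclast and phagocyte lysosomes and is mutated in osteopetrosis, had 183, 109 and 125 TPM. Atp6v0a1 over Tcirg1 was 0.894-, 0.995- and 1.02-fold, so their order turned between libraries and the difference stayed within the spread between them. In the second quantification it was 1.03-, 1.10- and 1.06-fold, with Atp6v0a1 higher in each library. Atp6v0a2, the form of Golgi and endosomes, had 6.12, 4.58 and 5.94 TPM, with Atp6v0a1 21.4- to 26.7-fold above it. Atp6v0a4, the form of kidney intercalated cells, had 0 counts, which puts Tcirg1 at least 2512-fold above the level of 3 counts per library. As shares of the position, Tcirg1 held 49.8% ± 1.84, Atp6v0a1 48.2% ± 1.56 and Atp6v0a2 2.03% ± 0.283 (SD, n = 3).

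Subunit d, which couples the turning stalk to the ring, was also split. Atp6v0d1, the ubiquitous form, had 113, 74.8 and 102 TPM, and Atp6v0d2 (chr4:19876841-19922605, minus strand), known from osteoclasts and macrophages, had 82.0, 75.2 and 75.6 TPM in libraries 1, 2 and 3. Atp6v0d1 over Atp6v0d2 was 1.38-, 0.995- and 1.35-fold, so the pair was level in library 2 and Atp6v0d1 was higher in the others. Atp6v0d1 held 55.1% ± 4.52 of the position (SD, n = 3). With Atp6v0d2 and Tcirg1 the genes of both osteoclast-associated subunits were at 75 TPM or more, beside the osteoclast list, of which Acp5 (2.85, 4.12 and 5.52 TPM) and Ctsk (1.61, 1.13 and 1.89 TPM) reached 1 TPM in each library. The other 5 of its 7 genes did not, and Calcr and Oscar had 0 reads. The part of such cells in these levels was not tested. At position e, Atp6v0e held 99.96% ± 0.026 and its paralog Atp6v0e2 was at 0.08, 0.01 and 0.04 TPM.

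The cytosolic motor V1 had all of its positions filled. Its 8 positions were each filled by a gene whose mean lay between 42.8 TPM (Atp6v1h) and 192 TPM (Atp6v1a), a 4.49-fold range, against a 7.97-fold range over the 5 positions of V0. Without Atp6v0c the V0 positions spanned 1.65-fold. With protein-coding transcripts alone V1 spanned 9.20-fold and V0 7.98-fold, so which part was more even depended on the genes and transcripts counted. Atp6v1a, the catalytic subunit, had 246, 142 and 189 TPM in libraries 1, 2 and 3, and Atp6v1b2, the B subunit that completes the hexamer with it, had 181, 136 and 147 TPM. Atp6v1a was thus above Atp6v1b2 in each library, by 1.36-, 1.04- and 1.28-fold.

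The peripheral stalk genes were close behind the hexamer. Atp6v1g1 had 162, 108 and 149 TPM, Atp6v1e1 had 105, 86.4 and 114 TPM, and Atp6v1c1, whose subunit joins the stalks to V0, had 112, 75.3 and 93.3 TPM. Their ranges overlapped. Of the rotor genes, Atp6v1f had 160, 84.8 and 129 TPM and Atp6v1d had 71.3, 36.3 and 45.4 TPM. Atp6v1h, the subunit that holds released V1 inactive, had 40.6, 39.4 and 48.5 TPM and was below Atp6v1d in library 1 and above it in libraries 2 and 3. Of 8 pairs of neighbours in the order of the V1 levels, 4 kept their order in each library and 4 did not.

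The V1 paralogs with known tissue preference were close to absent. Atp6v1b1 and Atp6v1g3 of the kidney, Atp6v1c2 of kidney and lung and Atp6v1e2 of the testis each had 0 counts in all 3 libraries. Against the level of 3 counts per library, Atp6v1b2 was at least 2137-fold above Atp6v1b1, Atp6v1c1 at least 1310-fold above Atp6v1c2, Atp6v1e1 at least 1397-fold above Atp6v1e2 and Atp6v1g1 at least 3789-fold above Atp6v1g3. The exception was Atp6v1g2, a neuronal form, at 2.03, 1.12 and 1.38 TPM. Atp6v1g1 held 98.9% ± 0.164 of position G (SD, n = 3), and none of the 4 neuronal markers reached 1 TPM. Atp6v1g2 shares 144 exonic bases with Nfkbil1 on the opposite strand, which was at 3.87 TPM, and whether the counting used strand is not given in the sources used here. Atp6v1fnb, a neighbour of Atp6v1f with no known place in the pump, also had 0 counts.

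**Figure D2:**
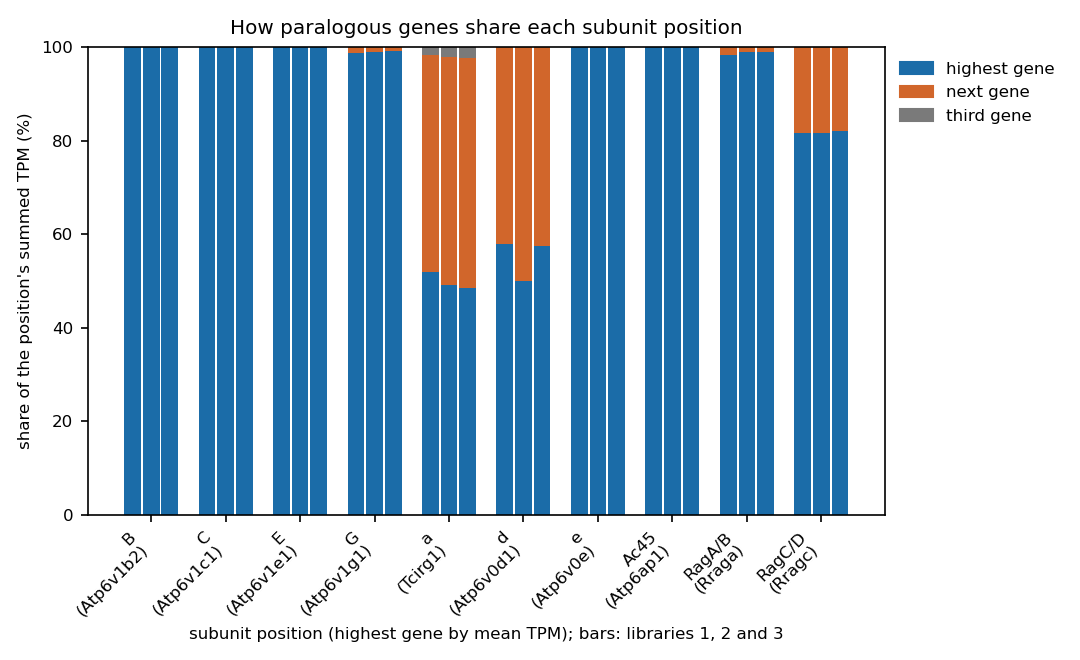
Share of each subunit position's summed TPM, in percent, held by its highest gene by mean (blue), the next (orange) and the one after it (grey), with 1 bar for each of libraries 1, 2 and 3. Position a is shared between Tcirg1 (49.8%) and Atp6v0a1 (48.2%) and position d between Atp6v0d1 (55.1%) and Atp6v0d2 (44.9%), while the other 8 positions have a leading gene at over 80%.

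Across the 10 positions with paralogs, 8 had the same leading gene in each library at 75% or more of the position's TPM. Positions a and d were the exceptions. The median level of the leading genes was compared between the parts of the pump, on the log2(TPM + 1) scale. These are levels in the cytosolic fraction, and whether V0 and V1 RNAs are recovered in it alike was not tested. V0 had a median of 7.52, 6.78 and 6.98 over 5 positions and V1 had a median of 7.08, 6.44 and 6.94 over 8 positions, in libraries 1, 2 and 3. V0 minus V1 was thus 0.45, 0.34 and 0.04, with a mean of 0.28 ± 0.21 (SD, n = 3). All 3 libraries had the same sign, and the exact two-sided sign-flip permutation test gave p = 0.25, the smallest value that 3 libraries can give. The difference depended on which genes and transcripts entered the median. Without the position of Atp6v0c it was 0.15, 0.08 and -0.07. Leaving out Atp6v0b instead must give the same values, since both genes lie above the middle gene, Tcirg1, in each library. Leaving out a V0 gene below Tcirg1 was not tried. With protein-coding transcripts alone the difference was 0.04, 0.19 and -0.14, so in each of these settings library 3 had the opposite sign. The leading gene of position a enters by its mean and was Tcirg1.

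The accessory subunit genes were expressed at the level of the pump. Atp6ap1, which encodes the Ac45 subunit inside the V0 ring assembly, had 195, 109 and 130 TPM in libraries 1, 2 and 3. Atp6ap2, the prorenin receptor, had 95.7, 68.7 and 75.3 TPM. Atp6ap1 was above Atp6ap2 in each library, by 2.04-, 1.58- and 1.73-fold. The paralog Atp6ap1l had 0 counts.

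All 5 Ragulator genes were detected, with a median of 42.5 TPM, and their levels overlapped those of the pump. Lamtor1 and Lamtor3 had means above that of Atp6v1h. Lamtor1, the anchor, had 90.1, 63.9 and 82.4 TPM in libraries 1, 2 and 3 and was the highest of the 5 in each library. Lamtor3, which pairs with Lamtor2, had 58.4, 36.8 and 51.2 TPM, and Lamtor2 had 35.0, 30.3 and 40.5 TPM. The other pair in the complex, Lamtor5 and Lamtor4, had 42.7, 36.2 and 48.6 TPM for Lamtor5 and 22.8, 17.9 and 25.9 TPM for Lamtor4. The order Lamtor1, Lamtor3, Lamtor5, Lamtor2, Lamtor4 held in each library, but with protein-coding transcripts alone Lamtor3 (35.2 TPM) was below Lamtor5 (36.2 TPM) in library 2. Lamtor1 over Lamtor4 was 3.95-, 3.58- and 3.18-fold. Lamtor1 shares 600 exonic bases with Lrrc51 on the opposite strand, which was at 0.853 TPM.

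The Rag GTPases work as heterodimers of RagA or RagB with RagC or RagD. Rragc had 98.7, 66.9 and 96.7 TPM in libraries 1, 2 and 3, Rragd had 22.1, 15.2 and 21.2 TPM, and Rraga had 20.2, 14.1 and 19.8 TPM. The ratios between these genes differed little between libraries. Rragc over Rraga was 4.88-, 4.74- and 4.89-fold, Rragc over Rragd was 4.46-, 4.41- and 4.55-fold, and Rragd over Rraga was 1.09-, 1.07- and 1.07-fold. Rraga and Rragb together reached 20.6, 14.3 and 20.0 TPM, against 121, 82.1 and 118 TPM for Rragc and Rragd together. These are RNA levels, and the amounts of the proteins or heterodimers were not measured here. Rragb, the form best known from brain, had 11, 17 and 16 counts, or 0.35, 0.15 and 0.23 TPM. Rraga held 98.7% ± 0.351 and Rragc 81.7% ± 0.240 of their positions (SD, n = 3).

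The mTORC1 subunits were the lowest of the detected complexes. Rptor, the scaffold that binds the Rag GTPases and substrates, had 9.41, 7.75 and 8.53 TPM in libraries 1, 2 and 3, and Mtor, the kinase, had 5.43, 4.27 and 5.54 TPM. Rptor over Mtor was 1.73-, 1.81- and 1.54-fold. Mtor ranked within the top 69.9% and Rptor within the top 53.2% of detected protein-coding genes, against 13.1% for Lamtor5 and 7.04% for Lamtor1. Over all 29 detected genes, 12 of 28 pairs of neighbours in the order of mean levels kept their order in each library and 16 did not, so ranks a few places apart carry little weight.

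The libraries were then compared with each other by counts, scaled to CPM with TMM factors, which removes the shift seen in TPM. For each gene, edgeR tested whether the 3 counts lay farther apart than the dispersion of genes at the same level allows, with Benjamini-Hochberg adjustment. Of 12231 genes tested, 203 (1.66%) varied between libraries at an adjusted p under 0.05. Of the 30 genes of the V-ATPase, Ragulator, Rag and mTORC1 tested, 0 did. At an unadjusted p under 0.05 there were 785 genes (6.42%) and again 0 of the 30. The lowest unadjusted p was 0.160 (Atp6v1f), with an adjusted p of 0.99997 in edgeR. Such a result does not show that the levels were equal in the 3 libraries.

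The distance between the highest and the lowest library had a median of 0.22 on the log2 CPM scale over the 30 genes and 0.28 over all genes tested. It was 0.21 over 5580 protein-coding genes, those at least as high in log2 CPM as the lowest of the 30 above 4 TPM. That set has no upper limit, and Atp6v1g2 and Rragb lie below it, so level was not matched. Among the 30 the distance was smallest for Lamtor1, at 6.70, 6.68 and 6.67 log2 CPM. The largest was that of Atp6v1g2, at 1.66, 1.00 and 0.95 log2 CPM. Of the 30 genes 15 were highest in library 1, among them both accessory genes, 5 of 8 V0 genes and 6 of 9 V1 genes. Of the 5 Ragulator genes, 3 were lowest in library 1 and highest in library 3. Their deviations were small, and in library 1 the median deviation from the gene's mean was -0.15 log2 units for the Ragulator genes and 0.05 for the V1 genes. The share of all tested genes highest in library 1 was not computed, so these counts do not set the complexes apart from other genes.

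**Figure D3:**
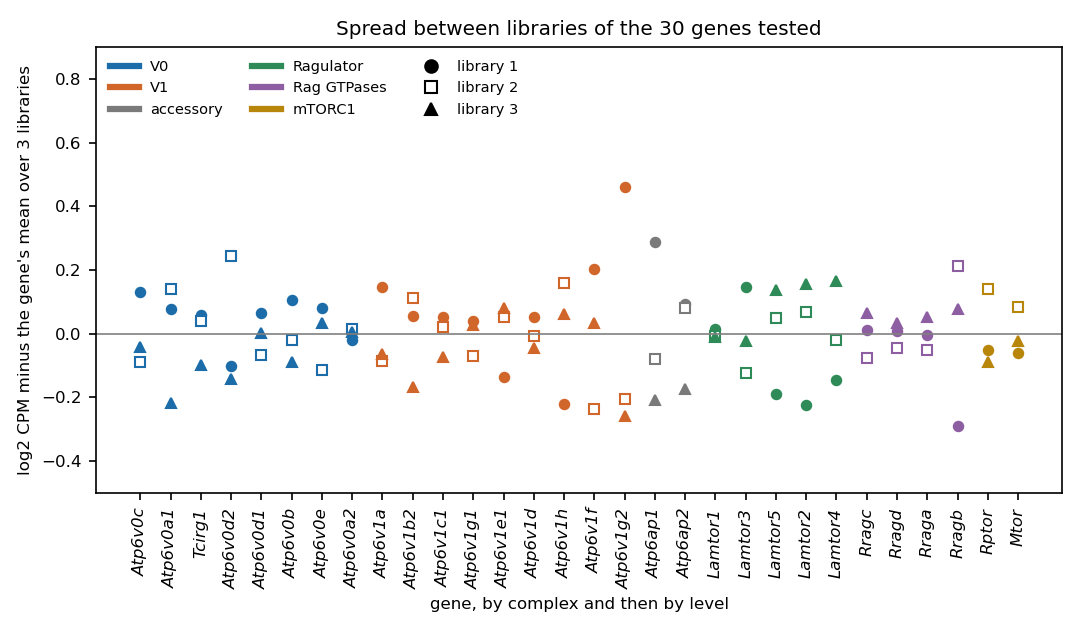
Log2 CPM of the 30 tested genes in each library minus the gene's mean over the 3 libraries, grouped by complex in colour; circles, open squares and triangles are libraries 1, 2 and 3. The 3 libraries of a gene lie within 0.72 log2 units of each other for each of the 30 genes, and Atp6v1g2 and Atp6ap1 have the highest points above 0, in library 1.

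Transcript tables divided each gene's TPM among its annotated transcripts, in a first quantification with the same layout as the gene tables and in a second one made separately. In 24 of 29 genes over 95% of the TPM of the first lay in transcripts classed as protein-coding. The 5 genes under 90% were Atp6v0a1, Atp6v0b, Atp6v1d, Rptor and Tcirg1. In Atp6v1d, the rotor subunit, a short retained-intron transcript of 2 exons and 775 bases, Atp6v1d-202, held 69.1%, 50.4% and 49.7% in libraries 1, 2 and 3. The full coding transcript of 9 exons and 3667 bases, Atp6v1d-201, held 30.8%, 48.7% and 50.1%. Here and below these are shares of TPM, a level per length, so at equal TPM a shorter transcript stands for fewer reads. Shares of reads were not computed. Atp6v1d as a whole had 4372, 4510 and 4555 counts in libraries 1, 2 and 3, beside 71.3, 36.3 and 45.4 TPM. Counting protein-coding transcripts alone, Atp6v1d had 22.0, 17.7 and 22.7 TPM and was the lowest V1 gene in use, with Atp6v1h 1.81-, 2.16- and 2.11-fold above it. The second quantification also gave Atp6v1d-202 the larger share, at 72.7%, 60.2% and 60.2%.

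Retained-intron transcripts were also highest in library 1 in Atp6v0b and Tcirg1, which were chosen after their values were seen. Atp6v0b-204 held 36.6%, 9.58% and 0% of its gene in libraries 1, 2 and 3, and 24.2%, 0% and 0% in the second quantification. Tcirg1-213, of 467 bases, held 23.7%, 5.40% and 1.72%, and 15.6%, 2.79% and 2.08% in the second. In counts, which are not per length, Atp6v0b had 5722, 5656 and 5586 and Tcirg1 had 14886, 15834 and 14919 in libraries 1, 2 and 3. With protein-coding transcripts alone Atp6v0b had 133, 112 and 142 TPM and Tcirg1 had 135, 97.3 and 118 TPM. Library 1 then lay between the others for Atp6v0b and was still the highest for Tcirg1. Atp6v0a1 over Tcirg1 was then 1.09-, 0.997- and 0.930-fold, so the order turned the other way in libraries 1 and 3 and the pair again stayed within the spread. Over the 19 genes with a retained-intron transcript its mean share was 9.14%, 5.93% and 4.77%, while over all 5811 such genes it was 6.34%, 6.49% and 5.51%. The median shares over the 19 were 0.614%, 1.31% and 1.01%, with 6 genes highest in library 1 and 11 in library 2. Over the 5811 genes the medians were 0.866%, 1.71% and 0.934%, with 1435 genes highest in library 1 and 2729 in library 2, so library 2 held most of the highest shares there too. What made these shares differ between libraries was not tested.

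Several genes used more than 1 coding transcript. Atp6v1a-202 held 79.0%, 75.9% and 81.7% and Atp6v1a-201 held 12.4%, 22.6% and 17.5% in libraries 1, 2 and 3, and the coding length of 1851 bases is the same in both. The second quantification gave 48.2%, 51.6% and 63.7% to Atp6v1a-202 and 26.0%, 34.1% and 29.5% to Atp6v1a-201, with the same transcript leading. Rragd-203, with 1197 coding bases, held 58.8%, 74.1% and 69.9%, and Rragd-202, with 837 coding bases, held 40.9%, 25.0% and 29.1%. The second quantification gave Rragd-202 less, at 24.7%, 0% and 7.77%, so its share depended on the method. In Atp6v0a1 the leading transcript Atp6v0a1-202 of 20 exons held 66.8%, 59.4% and 59.0%. The next by mean TPM, the 373-base Atp6v0a1-206, held 13.3%, 1.44% and 9.84%, and a non-coding transcript of 828 bases held 7.73%, 5.79% and 9.73%.

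Raptor showed the widest disagreement between the quantifications. In the first, Rptor-211, a transcript classed as a target of nonsense-mediated decay with a coding length of 1161 bases, held 42.0%, 43.2% and 49.8% in libraries 1, 2 and 3. The full-length coding transcript Rptor-201, with 4005 coding bases, held 29.6%, 30.5% and 27.5%. In the second, Rptor-211 held 7.37%, 7.34% and 10.5% and Rptor-201 held 65.0%, 63.6% and 65.7%. The 3 libraries stood close together within each quantification and far apart between them. With protein-coding transcripts of the first alone, Rptor over Mtor was 0.515-, 0.60- and 0.489-fold, so the order of Rptor and Mtor turned with that choice. Rptor was below the 10 TPM set for naming transcripts and was added after its values were seen.

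**Figure D4:**
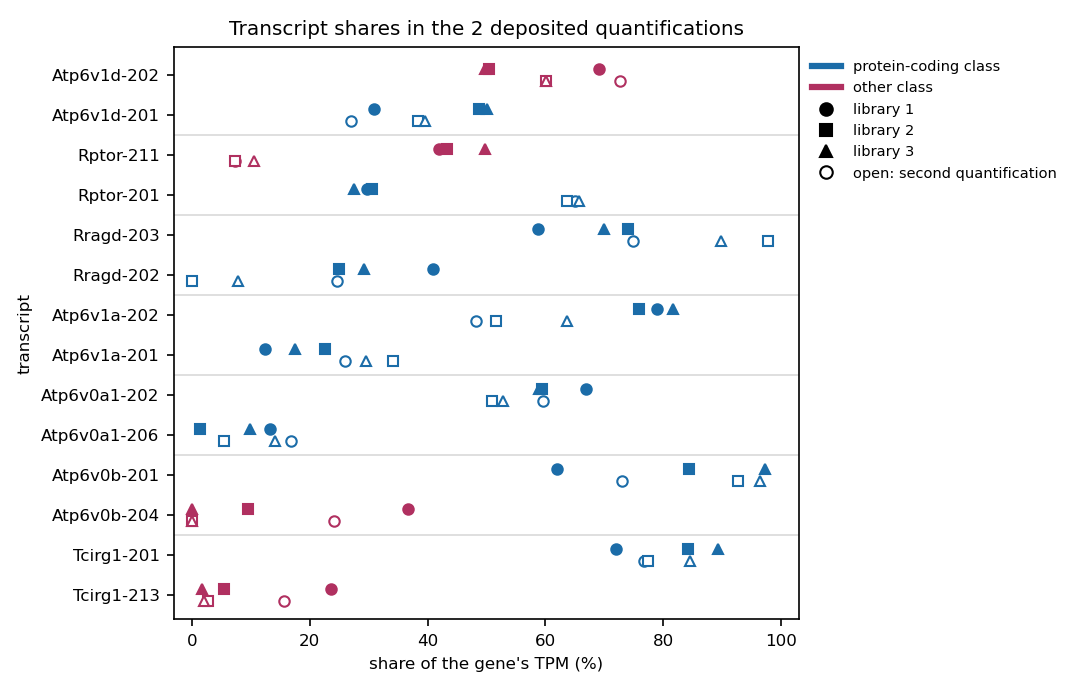
Share of the gene's TPM, in percent, of the leading 2 transcripts of 7 genes; filled symbols are the first and open symbols the second quantification, circles, squares and triangles are libraries 1, 2 and 3, and red marks transcripts not classed as protein-coding. Rptor-211 lies at 42.0% to 49.8% in the first and at 7.34% to 10.5% in the second, while Atp6v1d-202 leads its gene in both except in library 3 of the first, where Atp6v1d-201 is at 50.1%.

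Unscaled TPM was lower in the second quantification, with means of 272 against 770 TPM for Atp6v0c and 77.3 against 192 TPM for Atp6v1a. Protein-coding genes held 17.6%, 9.84% and 7.91% of its TPM in libraries 1, 2 and 3. Rescaled over protein-coding genes, gene levels differed much less between the quantifications than transcripts did. The second over the first was then between 0.918- and 1.12-fold over 28 genes above 4 TPM, with a median of 0.973-fold. The authors' posterior SD of the count was at most 0.465% of the count for any gene at 1 TPM or more. Apart from Atp6v0c, the share of 31-base words in common with other annotated genes was highest among detected genes in Atp6v1f (29.0%), Lamtor1 (28.5%) and Atp6v1g1 (24%). Their top partners were processed pseudogenes at 0.04 TPM for Atp6v1f, 0.07 TPM for Lamtor1 and 1.05 TPM for Atp6v1g1. The leading transcripts of paralogs at the same position shared no such words with each other.

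The other genes of the pathway were followed in 13 lists of 73 genes. Of these, 67 reached 1 TPM in each library, and the median of the 73 was 8.85 TPM, against 45.8 TPM over the 38 genes. None of the 70 tested varied between libraries at an adjusted p under 0.05 in edgeR, beside 1.66% of all genes. At an unadjusted p under 0.05 there were 3 of the 70, beside 6.42% of all genes, namely Mcoln1, Tpcn2 and Bmt2, named after their values were seen.

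Among factors that build or reattach the pump, Dmxl1 had 27.8 ± 6.15 TPM, Wdr7 19.4 ± 4.37 TPM and Vma21 15.4 ± 2.56 TPM (SD, n = 3), and all 7 of the list were detected. Dmxl1 and Wdr7 belong to the Rabconnectin assembly factors, and Vma21 to the chaperones of V0 in the endoplasmic reticulum. The TLDc proteins, which bind V1, were led by Oxr1 at 30.8 ± 11.0 TPM, Ncoa7 at 9.75 ± 2.00 TPM and Tbc1d24 at 4.09 ± 1.17 TPM. Of the lysosomal channels and transporters, Clcn7 had 52.5 ± 10.7 TPM, Tpcn1 35.0 ± 8.66 TPM and Mcoln1 26.5 ± 12.9 TPM. Clcn7, the chloride-proton exchanger, thus stood below the leading genes of V0 and near Atp6v1h.

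The genes that set mTORC1 activity were mostly at a few TPM. The mTORC1 partners Akt1s1, Deptor and Mlst8 had 16.3 ± 4.30, 3.54 ± 0.965 and 1.87 ± 0.320 TPM (SD, n = 3). For mTORC2 the highest were Mapkap1 at 13.5 ± 2.53 TPM, Rictor at 3.70 ± 0.752 TPM and Prr5l at 2.82 ± 0.980 TPM. The activator Rheb had 21.7 ± 2.87 TPM, and Tsc2 and Tsc1, which switch it off, had 11.6 ± 2.05 and 7.53 ± 1.71 TPM. The amino acid brake of GATOR1 with KICSTOR had a median of 2.17 TPM, led by Depdc5 at 4.94 ± 1.13 TPM, Nprl3 at 3.02 ± 0.610 TPM and Nprl2 at 2.30 ± 0.546 TPM. GATOR2, which opposes it, had a median of 3.43 TPM, led by Sec13 at 25.2 ± 4.66 TPM, Seh1l at 6.52 ± 1.51 TPM and Wdr24 at 3.43 ± 0.855 TPM. Sec13 and Seh1l are also subunits of the nuclear pore.

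The folliculin complex, which acts on RagC and RagD, stood higher. Fnip2 had 128, 71.9 and 112 TPM in libraries 1, 2 and 3, Fnip1 had 24.6 ± 4.91 TPM and Flcn had 18.8 ± 4.42 TPM (SD, n = 3). Fnip2 was thus above Rragc (98.7, 66.9 and 96.7 TPM) in each library, and its paralog Fnip1 was above Rragd in each. Such RNA levels do not tell which GTPase a protein acts on. Of the amino acid sensors, Sesn1 had 47.1 ± 7.46 TPM, Bmt2 15.2 ± 4.92 TPM and Castor2 7.65 ± 1.01 TPM. Among subunits of BORC, which binds Ragulator, Bloc1s1 had 42.3 ± 9.13 TPM, Snapin 23.5 ± 7.36 TPM and Kxd1 19.0 ± 3.52 TPM. The mTORC1 substrates were led by Eif4ebp2 at 24.8 ± 9.01 TPM, Larp1 at 20.1 ± 2.97 TPM and Lpin1 at 10.5 ± 2.41 TPM. The 4 genes of the MiT/TFE family, whose members bind the CLEAR element, were all detected. Tfe3 was at 38.5 ± 8.59 TPM, Tfec at 32.5 ± 9.22 TPM, Mitf at 14.1 ± 2.66 TPM and Tfeb at 11.6 ± 1.70 TPM.

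**Figure D5:**
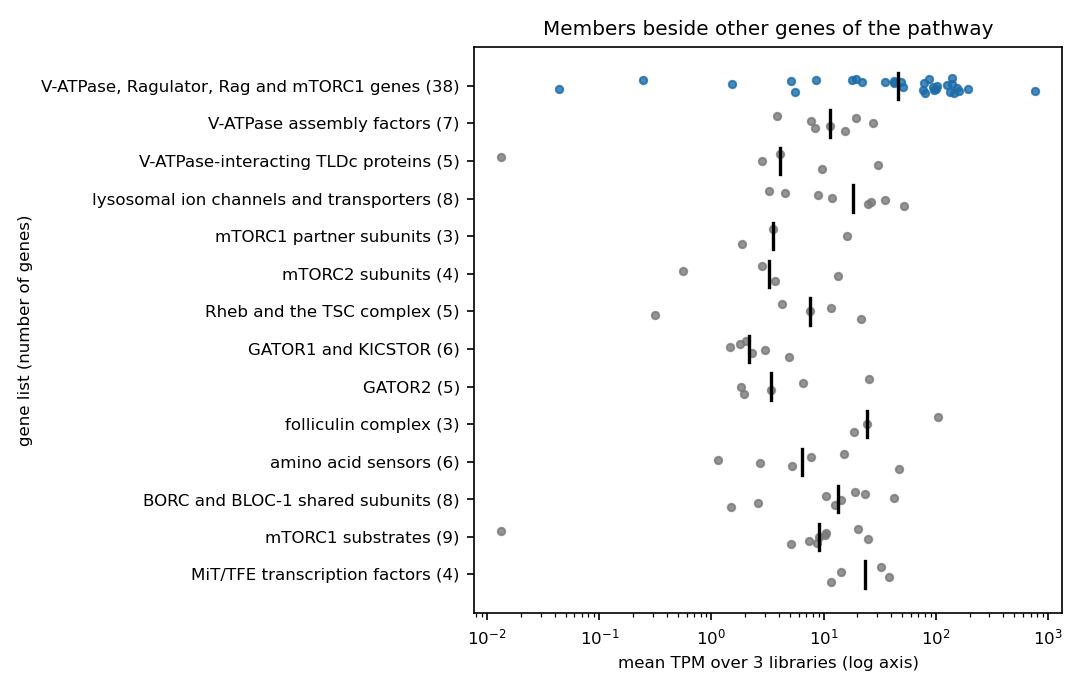
Mean TPM over 3 libraries, on a log axis, of the 38 genes (top) and of 13 lists of other genes of the pathway; each point is a gene, the black bar is the median over the list and genes under 0.01 TPM are not drawn. The 38 genes have a median of 45.8 TPM, the folliculin complex 24.6 TPM and GATOR1 with KICSTOR 2.17 TPM.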

How the data were processed

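The 3 libraries form 1 group. The authors' deposited gene and transcript tables hold an expected count and TPM (a level per transcript length, relative to the library total) for GENCODE M21 on mm10, per the file headers and the deposited notes, with a posterior mean and SD of each count in reads. A second deposited transcript table holds estimated counts and TPM, summed here per gene. For the quantification, the tools, versions and strand use were not given in the sources used here. The 38 genes and all lists were chosen with earlier results of these data known. Expected counts were rounded and tested with edgeR 4.0.16 (R 4.3.3; filterByExpr, TMM, 1-group fit, goodness of fit to the trended dispersion, Benjamini-Hochberg over all 12231 genes). The test was also run on counts simulated from that fit with a common dispersion for all genes, which is not the trended one used here, and its outcome is not given. Levels are TPM with mean ± SD. V0 and V1 were compared as medians of log2(TPM + 1) over the leading gene of each position. SDs measure the spread of these 3 samples, which may be technical. The edgeR p-value sets a gene's spread against the trended dispersion over all genes. The permutation p-value sets the mean difference against its values under flipped signs. The count floor of 3 covers counting error only. Named genes are all members, the 3 highest of each pathway list and any gene of those lists at 0 counts in each library or varying between libraries, and, for members at 10 TPM or more with at least 2 transcripts at 5% or more in each library, their leading transcripts. Alternatives were DESeq2 1.42.0 size factors, no count filter, the second quantification, TPM rescaled over protein-coding genes, other thresholds and leaving out each library. Promoter windows came from RefSeq (GRCm38.p6). Promoters of 8 genes, and protein sequences, were not used here.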

Additional observations from a re-analysis of the deposited data

How the results depend on the processing

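No paired analysis was possible because the study has 1 group. The count of genes varying between libraries was 203 with all libraries, 203 with DESeq2 size factors, 221 without a count filter and 200 in the second quantification, and lay between 89 and 132 when a library was left out, with fewer samples in the fit. The count among the V-ATPase, Ragulator, Rag and mTORC1 genes was 0 in each of these settings. The number of positions with 1 leading gene stayed at 8 with the second quantification, without each library and with protein-coding transcripts alone, and was 7 at a share of 90%. The V0 minus V1 difference of 0.28 was 0.91 with every gene included, where absent V1 paralogs enter the median, 0.055 without Atp6v0c, 0.055 without Atp6v0b and 0.030 ± 0.16 (SD, n = 3) with protein-coding transcripts alone, the last 3 chosen after seeing the data, so its size depends on which genes and transcripts enter. Its mean stayed positive, but in those last 3 settings library 3 turned negative. The settings without Atp6v0c and without Atp6v0b give the same median by arithmetic and count as 1. Under the other settings the mean moved by less than 1 SD. Leading shares moved by more than 1 SD in the second quantification at 5 positions, to 99.98% for Atp6v1c1, 98.6% for Atp6v1g1, 47.5% for Tcirg1, 99.8% for Atp6v0e and 82.1% for Rragc, so that Atp6v0a1 led position a there. Levels in TPM moved with the total they are divided by, and compared within a library this cancels. Of 31 genes, 25 agreed between quantifications within 1 SD after rescaling over protein-coding genes, and 13 of 30 leading transcript shares did. At these depths the genes with 0 counts are below the floor of 3 counts, and 3 libraries cannot give a permutation p under 0.25.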
